A study of Caenorhabditis elegans with 12 samples.

Results

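Worms fed glucose together with the citrus flavonoid naringin (Nar) were set against untreated worms, to see which genes stayed away from the untreated level. The comparison used 6 of the 12 RNA sequencing libraries of the series, namely 3 libraries of worms on 2% glucose with 25 μM Nar (Nar+Glu) and 3 of worms without glucose (Control), and libraries were assigned to groups by their labels. All worms were the wild-type N2 strain of Caenorhabditis elegans at 20 °C. By the methods of the study they were synchronised at the L4 larval stage and exposed for 5 d, and progeny were removed by letting the adults sediment. The other 6 libraries, 3 of glucose plus dimethyl sulfoxide, the solvent of Nar (DMSO+Glu), and 3 of glucose alone (Glu), entered the same fit and are given as levels. All 3 glucose groups share the 2% glucose, and Nar+Glu shares its solvent with DMSO+Glu. Control lacked glucose, solvent and Nar, so the 3 additions cannot be told apart within the comparison of Nar+Glu with Control. The labels do not say that replicates came from separate cultures, so p-values measure only the spread between these libraries.

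As background, a whole adult worm is a mixture of germline, oocytes, stored sperm and embryos with intestine, epidermis, muscle and neurons, and a level in such RNA averages over all of them. The intestine stores fat and makes yolk, and the epidermis secretes the collagens of the cuticle. Added glucose feeds glycolysis and fat synthesis and also raises the osmotic load, against which worms accumulate glycerol. The nuclear receptor NHR-49 acts on fatty acid desaturation and oxidation, and HLH-30, the worm counterpart of mammalian TFEB, acts on autophagy and lysosome genes.

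Levels were FPKM, which scale the fragments of a gene to transcript length and to the mapped fragments of the library, and the number of fragments behind them is unknown, so no counting interval is given. The summed FPKM was 315637 ± 5990 in Nar+Glu, 325519 ± 3786 in DMSO+Glu, 327040 ± 10847 in Glu and 345521 ± 15015 in Control (SD, n = 3 each), and 270 to 327 genes were listed at 0 in a Nar+Glu library against 417 to 454 in a Control library. Across genes, log2(FPKM + 1) had a Pearson's r of 0.9872 to 0.9916 within a group and 0.9648 to 0.9695 between Nar+Glu and Control. None of the tissue markers in the table was at 0 in the 6 libraries. Summed over the list, the pharynx muscle markers myo-1, myo-2 and tni-4 stood at 85.2 to 94.8 FPKM in Nar+Glu and 48.1 to 60.8 FPKM in Control, the intestinal markers elt-2, elt-7, ges-1 and ifb-2 at 70.4 to 71.3 and 50.4 to 57.6 FPKM, and the neuronal markers unc-119, rab-3, snb-1, snt-1 and ric-4 at 122 to 126 and 95.3 to 111 FPKM. The germline markers pgl-1, pgl-3, glh-1, htp-3 and him-3 stood at 244 to 278 FPKM in Nar+Glu and 300.2 to 325 FPKM in Control, the oocyte markers oma-1, oma-2 and rme-2 at 362 to 381 and 458 to 502 FPKM, and the epidermal markers col-19, lin-26, elt-3 and dpy-7 at 116 to 122 and 171 to 201 FPKM. Of these 4 epidermal markers col-19 was called lower and dpy-7 higher (log2 change 0.55), so the lower sum rests on col-19. Body wall muscle markers overlapped (325 to 366 FPKM in Nar+Glu, 344 to 409 FPKM in Control). Of the progeny markers, the 4 of 6 zygotic embryo genes in the table summed to 4.75 to 6.06 FPKM in Nar+Glu and 6.45 to 7.37 FPKM in Control, and the 5 moulting genes to 94.8 to 98.6 and 62.7 to 80.4 FPKM. The male marker try-5 was at 0.307 to 0.681 FPKM in Nar+Glu and 0.0617 to 0.201 FPKM in Control. In whole worms, fewer cells of a type and less RNA per cell cannot be told apart, and the part of tissue makeup in the changes given here was not tested.

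Of the 12151 genes, 6657 (54.8%) were called at an adjusted p below 0.05 (limma, Benjamini-Hochberg over all genes tested), 2622 (21.6%) higher and 4035 (33.2%) lower in Nar+Glu than in Control. The shares of 21.6% and 33.2% are the background for the counts of every gene list below. With the thresholds of the study, an unadjusted p below 0.05 and a change above 1.1-fold, 7372 genes (60.7%) passed. Most changes were small, and 76.1% of the called genes differed by less than 1.5-fold. Larger changes leaned upward, with 250 genes (2.06%) called and more than 2-fold higher and 90 (0.741%) called and more than 2-fold lower. These counts depend on the pseudocount and the filter, at 665 higher and 214 lower with a pseudocount of 0.1 FPKM, 413 and 154 with 0.5 FPKM and 115 and 50 above 5 FPKM. They were 171 and 133 with quantile normalization. Of the 5494 genes not called, 4272 (77.8%) had a 95% interval of the difference that lay inside 1.5-fold in either direction. Fold changes here are on log2(FPKM + 1), which understates the change of genes at low levels, and 39.4% of the calls were upward as deposited, against 52.9% under median-ratio scaling (3180 higher, 2836 lower) and 25.6% among genes above 5 FPKM (1305 higher, 3793 lower). Adding a library covariate and leaving out the moderation, as Ballgown does, gave 230 higher and 398 lower and lowered the count of calls in nearly every gene list below.

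The direction of the changes followed the level of the gene. Among 4071 genes of 1 to 5 FPKM, 33.2% were called higher and 8.06% lower, with a median log2 change of 0.23. Among 3846 genes of 20 to 100 FPKM, 6.94% were called higher and 61.8% lower, with a median of -0.24. With quantile normalization, which gives all libraries the same distribution, these medians were 0.01 and -0.06. The median over all genes tested was -0.09 as deposited, -0.01 under median-ratio scaling and -0.05 under quantile normalization, so directions of small changes are relative to that shift.

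**Figure D1:**
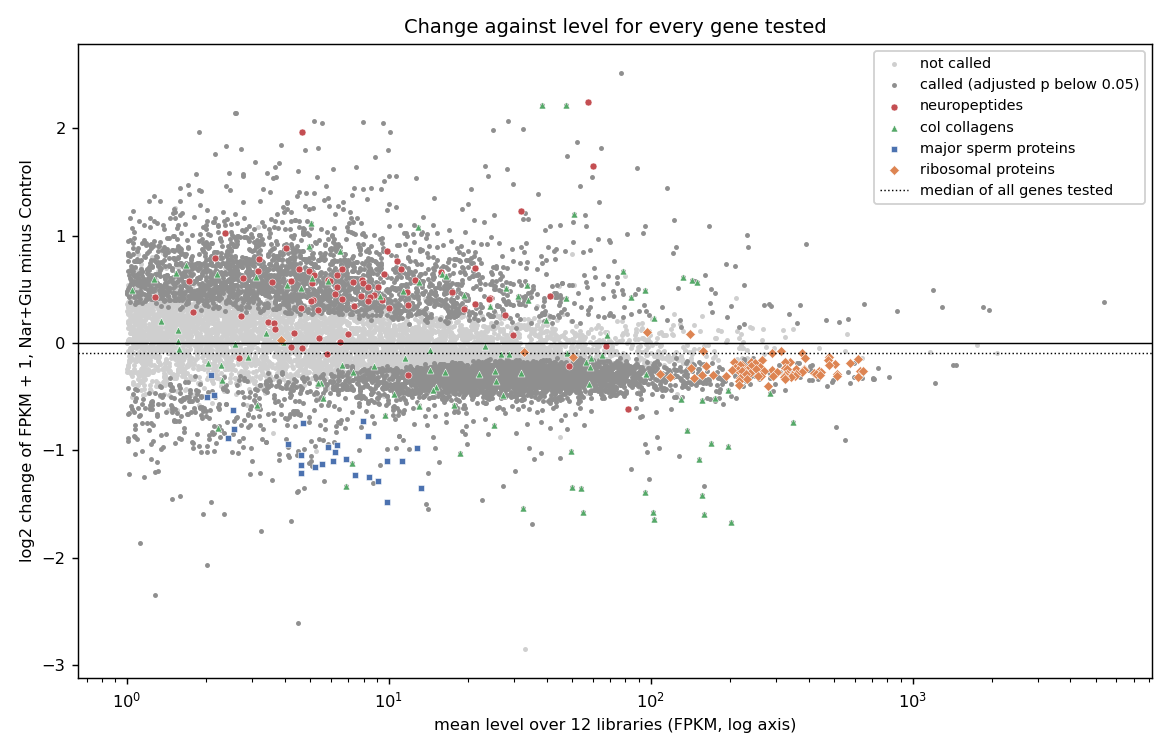
Each point is 1 of the 12151 genes tested, with its mean level over the 12 libraries in FPKM (log axis) and its log2 change of FPKM + 1, Nar+Glu minus Control, and the dotted line marks the median of all genes at -0.09. Neuropeptide genes (red circles) lie mostly above 0, major sperm protein genes (blue squares) and ribosomal protein genes (orange diamonds) mostly below it, and col collagens (green triangles) on both sides.

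The 8 largest rises and 8 largest falls were taken among called genes with a mean of at least 5 FPKM and no overlap between Nar+Glu and Control. Of the 6657 called genes, 6337 had no such overlap. The largest rise was ilys-3 (WBGene00016670, chromosome IV, 2464456 to 2465443, WBcel235), an invertebrate-type lysozyme. It had 99.2, 110.4 and 102 FPKM in the Nar+Glu libraries, against 20.8, 15.3 and 16.2 FPKM in the Control libraries. The lack of overlap follows from the rule of choice, and the log2 change was 2.52 (SE 0.10, adjusted p = 7.54e-10). The means of 83.0 FPKM in DMSO+Glu and 102 FPKM in Glu lay near that of Nar+Glu. The neuropeptide-like gene nlp-39 was likewise high in every glucose group. It had 74.3, 85.7 and 74.3 FPKM in Nar+Glu, means of 73.4 FPKM in DMSO+Glu and 63.9 FPKM in Glu, and 17.0, 14.6 and 15.4 FPKM in Control (log2 change 2.24, SE 0.07, adjusted p = 2.63e-10). The genes C54C8.12 (log2 change 2.07, 30.9 to 36.2 FPKM in Nar+Glu and 6.42 to 9.49 FPKM in Control) and T02B11.4 (log2 change 2.05, 10.6 to 10.9 FPKM in Nar+Glu and 1.09 to 2.76 FPKM in Control) were also at like levels in the other glucose groups, at 38.9 and 13.5 FPKM in DMSO+Glu and 33.6 and 11.6 FPKM in Glu.

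A second kind of rise was highest in Nar+Glu, with smaller rises over Control in the other glucose groups. The cuticle collagen col-74 (chromosome II, 5830374 to 5832022) had 107, 93.2 and 96.4 FPKM in Nar+Glu, against 20.7, 21.6 and 18.9 FPKM in Control, with means of 34.9 FPKM in DMSO+Glu and 36.5 FPKM in Glu. Its log2 change was 2.22 (SE 0.10, adjusted p = 4.21e-09), against 0.73 for DMSO+Glu minus Control (adjusted p = 0.000471), and its log2 difference from DMSO+Glu in the same fit was 1.49 (adjusted p = 8.02e-07). The collagen col-165 (chromosome X, 4353618 to 4354852) had 85.3, 73.9 and 79.9 FPKM in Nar+Glu, against 16.3, 17.3 and 15.5 FPKM in Control, and means of 28.2 FPKM in DMSO+Glu and 28.9 FPKM in Glu (log2 change 2.22, adjusted p = 7.54e-10). The genes T05H10.3 (15.6 to 18.6 FPKM in Nar+Glu, 3.15 to 3.52 FPKM in Control) and K01D12.1 (11.2 to 13.6 FPKM in Nar+Glu, 1.33 to 2.79 FPKM in Control) were likewise highest in Nar+Glu, at 5.92 and 4.10 FPKM in DMSO+Glu and 5.51 and 3.97 FPKM in Glu. For each of these 4 genes the Nar+Glu libraries stood above all 9 others.

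The falls held genes low in every glucose group and genes lowest in Nar+Glu. The largest was gba-2 (chromosome II, 2182494 to 2186434), named for human glucocerebrosidase, which splits glucose from glucosylceramide. It had 1.35, 1.46 and 1.33 FPKM in Nar+Glu, against 15.3, 12.2 and 13.1 FPKM in Control (log2 change -2.61, SE 0.14, adjusted p = 1.70e-08). Its level was equally low in DMSO+Glu (mean 1.46 FPKM) and Glu (mean 1.51 FPKM). The ABC transporter gene pgp-1, coding for a P-glycoprotein, had 2.06, 1.97 and 2.69 FPKM in Nar+Glu, against 8.55, 10.3 and 8.87 FPKM in Control, and 2.96 and 2.43 FPKM as means in DMSO+Glu and Glu (log2 change -1.66, adjusted p = 1.50e-07). T13F3.6 was at 16.7 to 19.5 FPKM in Nar+Glu, 27.9 FPKM in DMSO+Glu, 33.7 FPKM in Glu and 55.3 to 69.0 FPKM in Control (log2 change -1.69). The other 5 falls were collagens. Of these, col-124 (chromosome IV, 10216451 to 10217617) had 87.1, 72.9 and 68.0 FPKM in Nar+Glu, against 245, 249.9 and 233 FPKM in Control, with 209 FPKM in DMSO+Glu and 285 FPKM in Glu (log2 change -1.67, SE 0.09, adjusted p = 2.23e-08). Levels were likewise lowest in Nar+Glu for col-93 (59.4 to 76.1 FPKM in Nar+Glu, 185 to 216 FPKM in Control), col-139 (13.9 to 19.7 FPKM and 47.5 to 54.4 FPKM) and col-20 (31.7 to 48.7 FPKM and 115 to 125 FPKM), with DMSO+Glu ranges of 166 to 186, 52.2 to 57.2 and 104 to 122 FPKM. The collagen col-8 was between, at 46.3 to 55.6 FPKM in Nar+Glu, 103 FPKM in DMSO+Glu, 99.8 FPKM in Glu and 148 to 167 FPKM in Control.

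**Figure D2:**
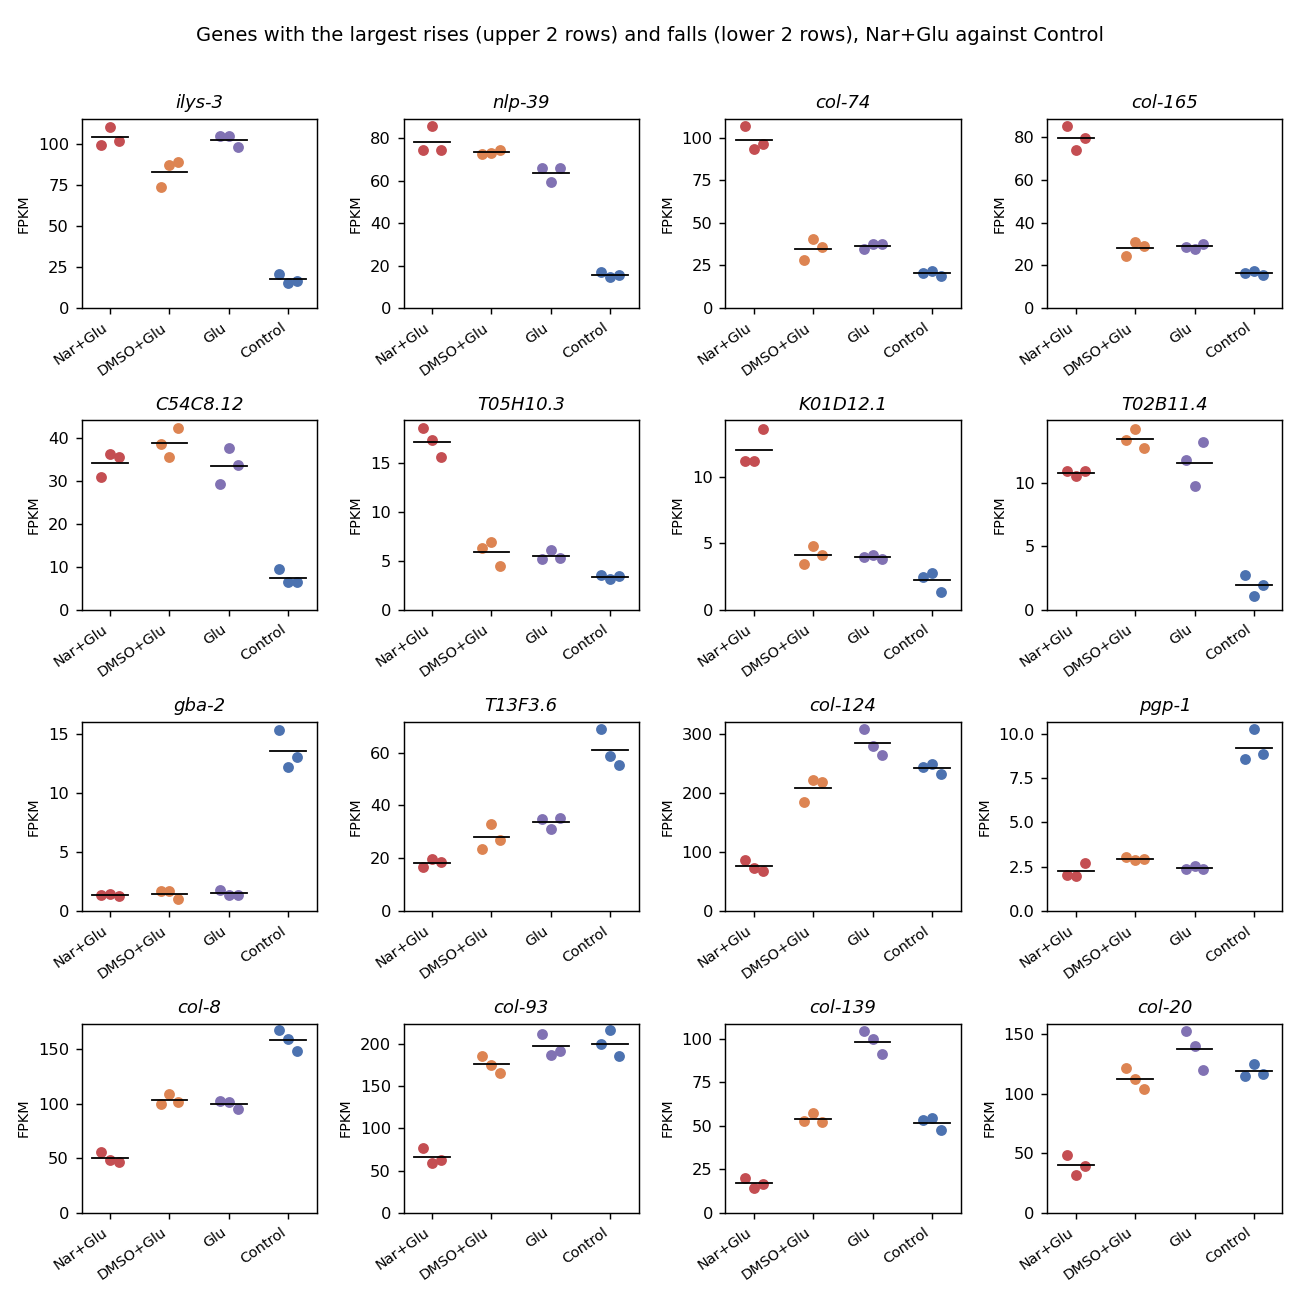
Points are FPKM in single libraries (linear axes from 0, 3 libraries a group, Nar+Glu, DMSO+Glu, Glu and Control from left to right) and lines are group means, with the 8 largest rises in the upper rows and the 8 largest falls in the lower rows. In ilys-3, nlp-39, C54C8.12, T02B11.4, gba-2 and pgp-1 all 3 glucose groups stand together away from Control, and in col-74, col-165, T05H10.3, K01D12.1, col-124, col-93, col-139 and col-20 Nar+Glu stands apart from the other 3 groups.

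Over the more than 2-fold genes, the differences from each group of the same fit can be set side by side, where comparisons with Control share the Control libraries and comparisons with Nar+Glu share the Nar+Glu libraries. The 250 genes more than 2-fold higher in Nar+Glu than in Control had a median log2 difference of 1.17 from Control by construction, and medians of 0.85 for Glu minus Control, 0.73 for DMSO+Glu minus Control, and 0.51 for Nar+Glu minus DMSO+Glu. For the 90 genes more than 2-fold lower, the median was -1.21 for Nar+Glu minus Control, 0.21 for Glu minus Control, -0.35 for DMSO+Glu minus Control and -0.81 for Nar+Glu minus DMSO+Glu.

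Cuticle collagens moved in both directions. Of 109 col genes tested, 32 were called higher and 42 lower, 5 and 15 of them by more than 2-fold, against 21.6% higher and 33.2% lower over all genes. Their summed FPKM was 4721, 3749 and 3998 in the Nar+Glu libraries, against 5447, 5772 and 5110 in the Control libraries, and 5611 ± 148.5 in DMSO+Glu and 6067 ± 284 in Glu (SD, n = 3 each). Nar+Glu was thus lowest in summed collagen level, with no overlap with any other group. The adult-stage epidermal marker col-19 had 44.1, 37.5 and 40.8 FPKM in Nar+Glu, against 114, 111 and 100.3 FPKM in Control (log2 change -1.39, adjusted p = 1.70e-08). Among 20 collagens of the body-shape genes, 7 were called higher and 3 lower. Of all 20, however, 13 had a change below 0, and the list median was -0.16 (0.02 without Control replicate 2), so no direction is given for the list. The largest rises there were dpy-14, with 103, 100.2 and 113 FPKM in Nar+Glu against 33.5, 36.9 and 35.4 FPKM in Control (log2 change 1.55), dpy-17 (log2 change 1.47) and sqt-3 (log2 change 1.14), all collagens in which mutations shorten or coil the body. The falls were bli-1, bli-2 and bli-6, collagens whose loss blisters the cuticle, with bli-6 at 9.46 to 12.2 FPKM in Nar+Glu and 15.3 to 19.7 FPKM in Control (log2 change -0.62).

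Genes of the moult and of hedgehog-related signalling, which worms use in the epidermis at each moult, were higher more often than lower. Of 11 moulting genes 7 were called higher and 0 lower (median log2 change 0.41), among them mlt-9 (10.1 to 12.1 FPKM in Nar+Glu, 6.01 to 6.19 FPKM in Control, log2 change 0.76) and the cuticle proteins noah-2 (log2 change 0.58) and noah-1 (log2 change 0.47). Of 47 hedgehog-related and patched-related genes, 29 were called higher and 5 lower (median 0.39, and 0.23 with quantile normalization). The filter at 5 FPKM left 18 higher and 4 lower. Their summed FPKM overlapped, at 557, 559 and 560 in the Nar+Glu libraries and 569, 552 and 496 in the Control libraries. The ground-like gene grl-21 had 8.56, 10.7 and 9.16 FPKM in Nar+Glu, against 3.57, 4.94 and 3.01 FPKM in Control (log2 change 1.13, adjusted p = 4.49e-05), while the groundhog gene grd-3 had 11.4, 12.3 and 14.9 FPKM, against 27.9, 26.5 and 22.6 FPKM (log2 change -0.94). The part of leftover larvae, whose moulting markers are given above, was not tested.

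Sperm genes had the lowest median changes among the gene lists. Major sperm proteins drive the crawling of worm sperm and are made only in sperm precursors. Of 28 msp genes tested, 25 were called lower and 0 higher, 15 by more than 2-fold, with a median log2 change of -1.03 (-0.96 with median-ratio scaling and -1.22 with quantile normalization). Their summed FPKM was 54.2, 76.4 and 67.8 in the Nar+Glu libraries, against 171, 177 and 145 in the Control libraries. It was 185, 179 and 151 in DMSO+Glu and 298, 312 and 304 in Glu, so that Glu was highest and Nar+Glu lowest. The largest fall among them was msp-76, with 1.81, 4.52 and 2.62 FPKM in Nar+Glu against 10.5, 10.1 and 8.60 FPKM in Control (log2 change -1.48, SE 0.21, adjusted p = 0.000134). Near-identical copies of msp genes share fragments, so single members are less certain than their sum. Of 21 other sperm genes 14 were called lower and 0 higher (median -0.66), of which the filter at 5 FPKM left 2 calls. Their sum was 33.9, 39.8 and 35.2 FPKM in Nar+Glu, against 75.0, 71.3 and 58.4 FPKM in Control. The steepest falls were in the nspd family of small sperm-specific genes, such as nspd-1 with 4.01, 3.96 and 3.11 FPKM in Nar+Glu against 9.79, 9.50 and 8.67 FPKM in Control (log2 change -1.14).

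Yolk and oocyte genes were lower as well. Vitellogenins are yolk proteins made in the intestine and taken up by oocytes through the receptor RME-2. The vitellogenin vit-1 had 98.5, 103 and 91.8 FPKM in Nar+Glu, against 251, 239 and 251 FPKM in Control (log2 change -1.33, SE 0.06, adjusted p = 1.75e-09). The near-identical vit-3 (435 to 456 FPKM and 788 to 863 FPKM, log2 change -0.90), vit-4 (413 to 449 FPKM and 713 to 757 FPKM, log2 change -0.78) and vit-5 (1373 to 1494 FPKM and 1574 to 1713 FPKM, log2 change -0.20, adjusted p = 0.0145) also fell, and vit-5 lost its call with median-ratio scaling, without Nar+Glu replicate 3 and without Control replicate 3. The most abundant pair was not called, as vit-2 had a log2 change of -0.02 (95% interval -0.14 to 0.11) and vit-6 of -0.09 (95% interval -0.22 to 0.04). Of 36 oocyte, eggshell and early embryo genes, 34 were called lower and 0 higher (median -0.38, and -0.18 with 23 lower and 1 higher under quantile normalization). The yolk receptor rme-2 had 114, 116 and 111 FPKM in Nar+Glu, against 147, 143 and 156 FPKM in Control (log2 change -0.38), and the fertilisation gene egg-5 had 44.3, 44.1 and 44.8 FPKM, against 68.6, 62.1 and 64.9 FPKM (log2 change -0.54). The cold-shock domain protein gene cey-3 fell by a like amount (log2 change -0.54). All 18 genes of DNA replication and the cell cycle were called lower (median -0.32), with cdc-6, which loads the replicative helicase, at 21.5 to 25.3 FPKM in Nar+Glu and 30.4 to 33.8 FPKM in Control, but only 6 were called with quantile normalization.

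Genes of neuropeptide families and of synapses were higher as groups. Of 75 genes of the flp and nlp families, which code for neuropeptides and, in part, for antimicrobial peptides, 51 were called higher and 1 lower (median log2 change 0.45, 0.53 with median-ratio scaling and 0.36 with quantile normalization). Their summed FPKM was 1108, 1061 and 1037 in Nar+Glu, against 861, 751 and 723 in Control, with 967 ± 54.2 in DMSO+Glu and 997 ± 30.1 in Glu (SD, n = 3 each). A large part of this difference came from nlp-39, nlp-29 and nlp-28. Their means were 78.1, 89.0 and 42.3 FPKM in Nar+Glu and 15.7, 28.2 and 17.5 FPKM in Control, so the sum does not measure neurons. The largest after nlp-39 were nlp-25, nlp-29 and nlp-28, and nlp-29 is an antimicrobial peptide gene of the epidermis that responds to wounding and fungal infection. It had 91.6, 87.8 and 87.6 FPKM in Nar+Glu, means of 64.7 FPKM in DMSO+Glu and 59.4 FPKM in Glu, and 30.7, 21.7 and 32.1 FPKM in Control (log2 change 1.64, SE 0.11, adjusted p = 1.54e-07). The 1 lower gene was nlp-27, which belongs to the same cluster of genes (log2 change -0.61). Of 17 genes for synaptic vesicles, neuropeptide processing and transmitters, 15 were called higher and 0 lower (median 0.66, and 0.61 with quantile normalization). The vesicle GTPase rab-3 had 19.9, 19.3 and 18.2 FPKM in Nar+Glu, against 10.6, 9.72 and 7.54 FPKM in Control (log2 change 0.98, adjusted p = 3.28e-05), ida-1 of dense-core vesicles 22.0, 22.7 and 21.8 FPKM against 11.2, 11.8 and 10.0 FPKM (log2 change 0.95), and the priming factor unc-13 8.93 to 9.21 FPKM against 4.02 to 5.19 FPKM (log2 change 0.83). Of the 5 neuronal markers summed above 3 were called higher and 0 lower, and these 3 are also in this list. Of 26 muscle filament genes 9 were called higher, led by the troponin I gene tni-1 (55.7 to 61.5 FPKM in Nar+Glu and 23.2 to 31.8 FPKM in Control), and 4 lower, namely act-1, act-2, act-3 and unc-27. The shares over all genes were 21.6% higher and 33.2% lower. The 3 actin genes are near-identical copies, so single values among them are uncertain.

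**Figure D3:**
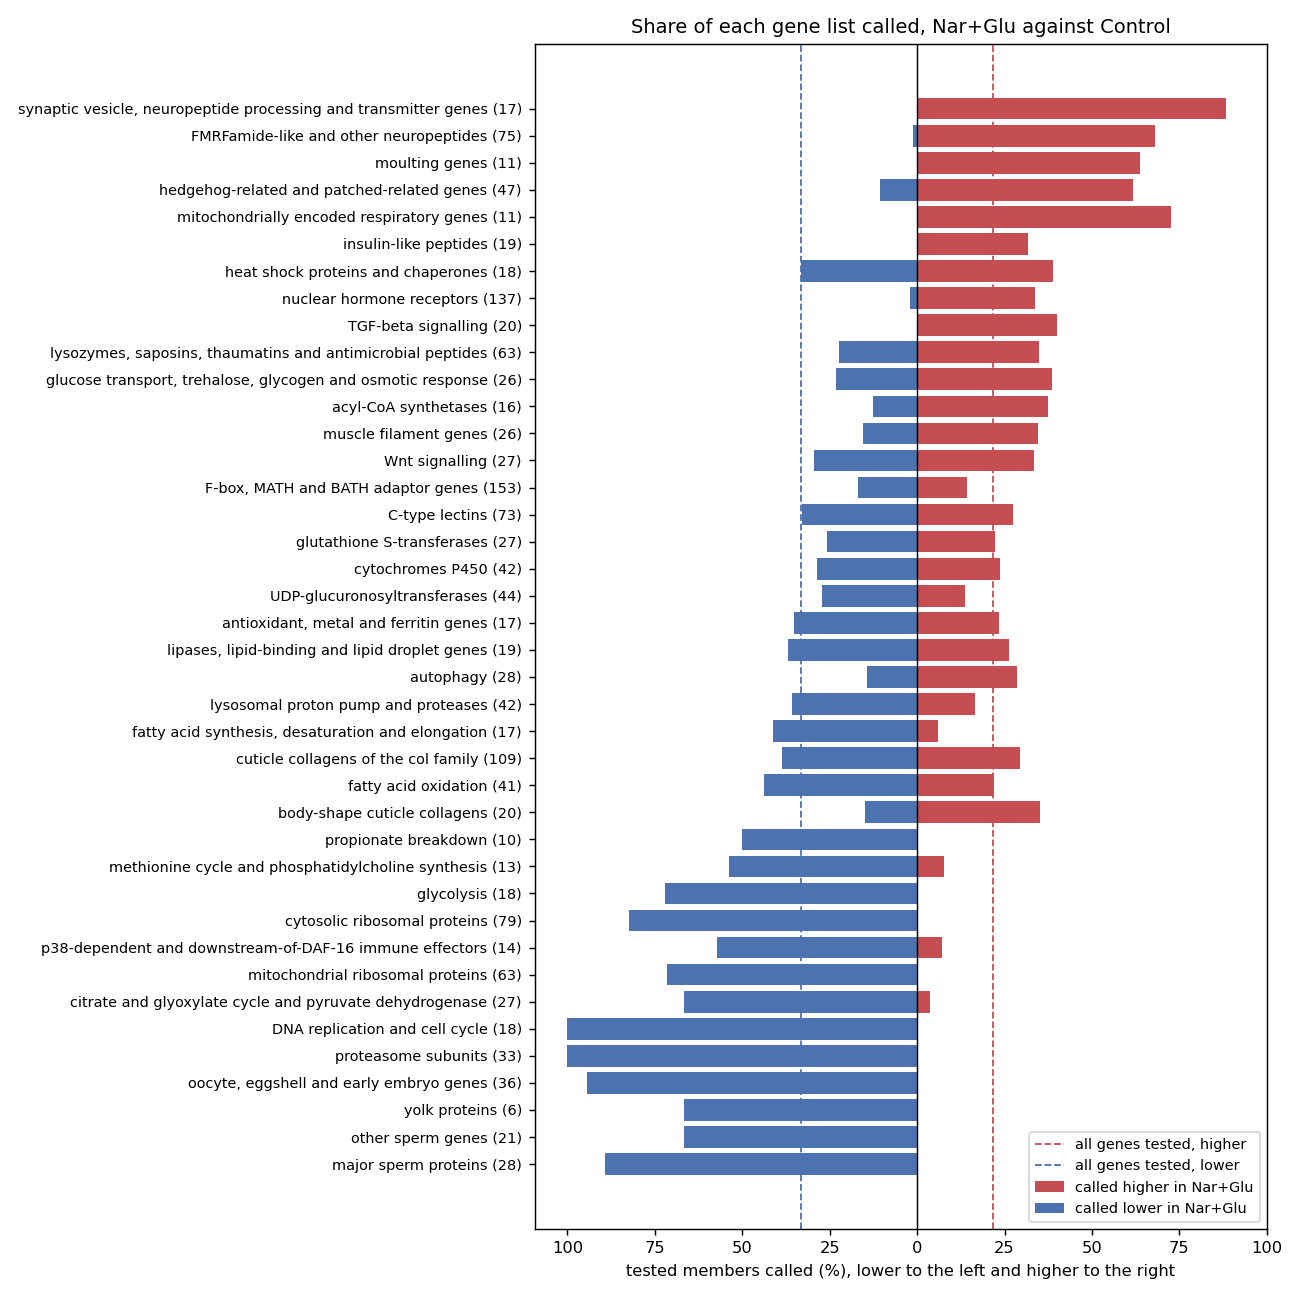
Bars give the share of the tested members of each gene list (number in brackets) called higher (right, red) or lower (left, blue) in Nar+Glu than in Control, ordered by median log2 change, and dashed lines mark all genes tested at 21.6% higher and 33.2% lower. Synaptic, neuropeptide, moulting and hedgehog-related lists reach far past the higher line with few or no falls, while the sperm, oocyte, proteasome and replication lists hold falls and no rises.

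Fat metabolism changed at single genes more than as a block. The acyl-CoA synthetase acs-2, which activates fatty acids for mitochondrial oxidation under NHR-49, had 40.9, 42.1 and 42.2 FPKM in Nar+Glu, against 10.6, 8.95 and 9.64 FPKM in Control. No library overlapped, and the log2 change was 2.00 (SE 0.08, adjusted p = 5.07e-10). Means of 30.2 FPKM in DMSO+Glu and 48.3 FPKM in Glu show that the level was high in every glucose group. The glyoxylate cycle gene icl-1, which lets worms turn fat into sugar, had 117, 119.9 and 105 FPKM in Nar+Glu, against 49.1, 55.9 and 53.8 FPKM in Control (log2 change 1.09, adjusted p = 7.80e-07), with 86.0 FPKM in DMSO+Glu and 129 FPKM in Glu. Of 41 fatty acid oxidation genes 9 were called higher, among them the carnitine palmitoyltransferases cpt-3 and cpt-4, and 18 lower, among them acox-1.4 and acdh-1. Over all genes 21.6% were called higher and 33.2% lower, so the 9 rises are no result about the family. The stearoyl-CoA desaturase fat-7 had 12.5, 11.9 and 12.1 FPKM in Nar+Glu, against 23.9, 20.4 and 22.5 FPKM in Control, and 22.3 and 19.5 FPKM in DMSO+Glu and Glu (log2 change -0.82, SE 0.09, adjusted p = 1.68e-05). Its paralog fat-6 had 51.2, 55.8 and 53.2 FPKM in Nar+Glu, against 78.3, 74.0 and 77.5 FPKM in Control (log2 change -0.51), and the elongase elo-2 had 46.3 to 49.5 FPKM against 68.3 to 83.6 FPKM (log2 change -0.63). The third Δ9 desaturase, fat-5, was not called (log2 change 0.06, 95% interval -0.09 to 0.22). Over 17 genes of fatty acid synthesis, desaturation and elongation, 7 were called lower and 1 (fat-3) higher, and the list median of -0.13 turned to 0.04 with quantile normalization.

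Among genes of fat storage and of methyl and propionate metabolism, the lysosomal lipase lipl-5 averaged 23.9 ± 5.21 FPKM in Nar+Glu and 43.2 ± 6.95 FPKM in Control (SD, n = 3 each), without overlap (log2 change -0.84, adjusted p = 0.000631 by limma). The diacylglycerol acyltransferase dgat-2, which makes triglyceride, was higher (11.8 to 12.6 FPKM in Nar+Glu and 6.94 to 10.2 FPKM in Control, log2 change 0.50). The triglyceride lipase atgl-1 had 12.2, 21.1 and 11.8 FPKM in Nar+Glu, against 25.1, 20.0 and 23.0 FPKM in Control, so that replicate 2 of Nar+Glu lay within the Control range, and its call (adjusted p = 0.0273) was kept under 10 of 17 alternatives. In phosphatidylcholine synthesis the methyltransferase pmt-2 had 67.5, 70.7 and 67.8 FPKM in Nar+Glu, against 115, 118 and 101 FPKM in Control (log2 change -0.69, adjusted p = 8.05e-06), and the methyl donor synthetase sams-1 fell by 0.32 on the log2 scale. Of 10 propionate breakdown genes 5 were called lower and 0 higher, hphd-1 and ech-6 with log2 changes of -0.51 and -0.47, while 2 genes were called lower under median-ratio scaling, 2 under quantile normalization (and 1 higher) and 3 without any 1 of the Control libraries. The share called lower was 33.2% over all genes and 61.8% among those of 20 to 100 FPKM.

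Single osmotic response genes rose, and sugar-burning genes held small falls, as did most genes of 20 to 100 FPKM. Of 26 genes of glucose transport, trehalose, glycogen and the osmotic response, 10 were called higher, 4 by more than 2-fold, and 6 lower. With the filter at 5 FPKM, 5 were called higher and 5 lower. The list median changed sign under that filter and with the library covariate, so no direction is given for the list. The aquaporin aqp-8 had 12.6, 16.1 and 13.9 FPKM in Nar+Glu, against 4.28, 4.43 and 3.95 FPKM in Control (log2 change 1.54, adjusted p = 9.63e-08), and the glycerol-3-phosphate dehydrogenase gpdh-1, which makes glycerol under osmotic stress, 6.99, 4.96 and 5.14 FPKM against 1.76, 1.66 and 2.00 FPKM (log2 change 1.24, adjusted p = 5.31e-06). Both were also above Control in DMSO+Glu (17.8 and 7.24 FPKM) and Glu (14.7 and 5.04 FPKM). The inositol transporter hmit-1.1 (4.55 to 5.27 FPKM in Nar+Glu and 1.18 to 1.91 FPKM in Control) and the trehalase tre-5 (3.79 to 5.00 FPKM and 1.11 to 1.67 FPKM) completed the more than 2-fold rises. Of 18 glycolysis genes 13 were called lower and 0 higher (median -0.21), as in hexokinase hxk-1 with 71.1 to 73.9 FPKM in Nar+Glu and 85.2 to 98.4 FPKM in Control, but median-ratio scaling gave 7 lower and 1 higher, and quantile normalization 2 lower and 2 higher. Their summed level was 921, 902 and 889 FPKM in Nar+Glu, against 1099, 1028 and 1031 FPKM in Control, while DMSO+Glu (1057 ± 28.2) and Glu (1046 ± 30.5) stood near Control (SD, n = 3 each). Of 27 genes of the citrate cycle and pyruvate dehydrogenase 18 were called lower, with sucl-2 as the steepest (log2 change -0.51), and icl-1 was the 1 rise. Quantile normalization gave 5 lower and 1 higher. Over all genes 33.2% were called lower, and among all genes of 20 to 100 FPKM 61.8%. The shares called lower in the glycolysis and citrate cycle lists lie near the latter, so these counts are no result about the families. The 11 respiratory genes encoded in mitochondrial DNA went the other way, with 8 called higher and 0 lower (median 0.34, and 0.45 with quantile normalization), such as nduo-5 with 284, 227 and 255 FPKM in Nar+Glu against 183, 161 and 181 FPKM in Control.

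Genes of protein synthesis and breakdown had small falls. Of 79 cytosolic ribosomal protein genes 65 were called lower and 0 higher, with a median log2 change of -0.26, and their summed FPKM was 21352, 22243 and 21146 in Nar+Glu, against 25844, 25513 and 25118 in Control. Median-ratio scaling gave 30 lower and 1 higher, and quantile normalization 13 lower and 1 higher. Of 63 mitochondrial ribosomal protein genes 45 were called lower and 0 higher (median -0.29), with 25 lower under median-ratio scaling and 11 under quantile normalization. All 33 proteasome subunit genes were called lower (median -0.34), with rpn-9 at 64.9, 68.2 and 67.6 FPKM in Nar+Glu against 99.5, 87.4 and 92.1 FPKM in Control (log2 change -0.47), and 16 were called with quantile normalization. These genes lie in the range of levels where most genes were called lower, at 61.8% of all genes of 20 to 100 FPKM and 64.1% of those above 100 FPKM. The share of 71.4% called lower in the mitochondrial ribosomal list lies near these, so its count is no result about that family.

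Immune genes split by family. Their counts are read beside 21.6% higher and 33.2% lower over all genes. Of 63 lysozymes, saposins, thaumatins and antimicrobial peptides, 22 were called higher (10 by more than 2-fold) and 14 lower (3 by more than 2-fold), with ilys-3 ahead and, among the next, the lysozyme ilys-2 (5.79 to 6.31 FPKM in Nar+Glu and 0.787 to 1.48 FPKM in Control) and the defensin-like abf-2 (31.8 to 37.3 FPKM and 7.67 to 16.0 FPKM, log2 change 1.63). The small peptide gene fipr-23 had a log2 change of 1.81 and was listed at 0 in 1 Control library. Of 14 effectors of the p38 immune pathway and genes downstream of DAF-16, 8 were called lower and 1 higher. C17H12.8 had 8.08, 9.06 and 10.5 FPKM in Nar+Glu, against 33.5, 28.8 and 24.7 FPKM in Control (log2 change -1.55, adjusted p = 4.65e-07), dod-24 had 9.87, 10.5 and 9.94 FPKM against 32.2, 28.6 and 30.4 FPKM (log2 change -1.50, adjusted p = 1.32e-07), and T24B8.5 had 22.0, 29.3 and 24.3 FPKM against 68.8, 54.1 and 53.4 FPKM (log2 change -1.19). For C17H12.8 the other glucose groups had a like level (8.55 FPKM in DMSO+Glu and 9.57 FPKM in Glu), while dod-24 and T24B8.5 were lowest in Glu (5.25 and 12.9 FPKM). Of 73 C-type lectins, which bind sugars, 20 were called higher and 24 lower. The largest was clec-169, with 0.645, 0.863 and 0.296 FPKM in Nar+Glu against 6.14, 5.27 and 5.55 FPKM in Control (log2 change -2.07, adjusted p = 2.19e-07), and it was at 0.756 FPKM in DMSO+Glu and 1.05 FPKM in Glu. The list medians of the lectins and, below, of the cytochromes P450, UDP-glucuronosyltransferases and glutathione S-transferases were near 0. They changed sign between scalings, so no direction is given for these lists. The filter at 5 FPKM lowered their counts and those of the lysozyme and peptide list through the genes it left out.

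Detoxification genes also moved singly. Their counts are read beside 21.6% higher and 33.2% lower over all genes and 33.2% higher and 8.06% lower among genes of 1 to 5 FPKM. Of 42 cytochromes P450 10 were called higher and 12 lower, and cyp-35A3 (0.534 to 0.854 FPKM in Nar+Glu and 2.60 to 4.47 FPKM in Control), cyp-35C1 (11.8 to 12.4 FPKM and 21.8 to 31.1 FPKM, log2 change -0.98) and cyp-14A3 (log2 change -0.97) were the largest falls. Of 44 UDP-glucuronosyltransferases 6 were called higher and 12 lower, led by ugt-63 with 8.91, 8.72 and 8.44 FPKM in Nar+Glu against 20.2, 16.2 and 15.3 FPKM in Control (log2 change -0.90). Of 27 glutathione S-transferases 6 were called higher and 7 lower, with gst-26 the largest (log2 change -0.75). Of 18 heat shock genes 7 were called higher, all of them small heat shock proteins such as hsp-12.1 (6.61 to 8.83 FPKM in Nar+Glu and 2.43 to 3.64 FPKM in Control), and 6 lower, among them the abundant chaperones hsp-1 and hsp-60. The median of the heat shock list was 0.26 and turned to -0.28 with the filter at 5 FPKM, so no direction is given for it. Of 17 antioxidant and metal genes 4 were called higher and 6 lower, against 2 and 3 without Nar+Glu replicate 1 and 2 and 4 without Nar+Glu replicate 2. The counts were 7 and 2 with median-ratio scaling, and 6 and 1 with quantile normalization, so no direction is given. The ferritin ftn-1 had 24.6, 25.7 and 25.2 FPKM in Nar+Glu, against 16.0, 11.2 and 15.1 FPKM in Control (log2 change 0.81, adjusted p = 0.000101), and the peroxiredoxin prdx-2 fell by 0.35 on the log2 scale.

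The autophagy regulator hlh-30 had 55.6, 40.6 and 45.6 FPKM in Nar+Glu, against 30.0, 26.5 and 26.2 FPKM in Control, with 35.5 FPKM in DMSO+Glu and 43.0 FPKM in Glu (log2 change 0.75, SE 0.12, adjusted p = 0.000374). The autophagy receptor sqst-1, a counterpart of p62, had 23.0, 27.3 and 24.5 FPKM in Nar+Glu, against 17.3, 17.4 and 15.1 FPKM in Control (log2 change 0.56), and the lipid transfer protein gene atg-2 had 26.8, 28.4 and 27.2 FPKM, against 19.7, 18.6 and 17.2 FPKM (log2 change 0.55). The initiating kinase unc-51 rose by 0.43 and the ubiquitin-like lgg-1 by 0.24 on the log2 scale. Of 28 autophagy genes 8 were called higher and 4 (atg-3, atg-5, atg-7 and epg-6) lower, of which atg-5 turned to a log2 change of 0.00 with quantile normalization, and the list median of -0.10 turned to 0.03 with quantile normalization. The shares over all genes were 21.6% higher and 33.2% lower, and no direction is given for the list. Of 42 genes of the lysosomal proton pump and proteases 7 were called higher and 15 lower, but 11 and 10 with median-ratio scaling and 14 and 7 with quantile normalization, so no direction is given. The cathepsin B-like cpr-2 was at 5.51, 5.43 and 4.32 FPKM in Nar+Glu against 0.494, 0.309 and 0.327 FPKM in Control (log2 change 2.14, adjusted p = 3.54e-08) and at 1.75 FPKM in DMSO+Glu and 3.10 FPKM in Glu.

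Of the 19 genes that the study names, 8 were called higher and 5 lower. The list mixes genes described there in these samples with genes given only as background and the reference gene act-1, so the counts are no independent evidence of a direction. The study's sequencing compared Nar+Glu with DMSO+Glu, and its qPCR compared glucose-fed worms with and without Nar. Calls against Control here are of another difference and do not test those results. Besides acs-2, hlh-30, unc-51 and lgg-1, the forkhead gene pha-4 (9.18 to 10.8 FPKM in Nar+Glu and 5.40 to 6.25 FPKM in Control, log2 change 0.67), the TEAD factor egl-44 (log2 change 0.44), its coactivator yap-1 (22.4 to 24.0 FPKM and 15.3 to 19.4 FPKM, log2 change 0.43) and the SREBP counterpart sbp-1 (log2 change 0.38) rose. Besides fat-6, fat-7 and ech-6, the acyl-CoA synthetase acs-4 (log2 change -0.27) and act-1 (log2 change -0.26), an actin gene often used as a reference, fell. The remaining genes, bec-1 (log2 change -0.19), skn-1 (-0.14), daf-16 (0.13), aak-2 (0.08), nhr-49 (-0.06) and fat-5, were not called, and the stress regulator skn-1 had 51.7, 47.1 and 51.9 FPKM in Nar+Glu, against 68.0, 49.0 and 50.5 FPKM in Control, where Control replicate 1 stood apart.

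Calls in signalling and regulatory families were mostly rises or were mixed. Their counts are read beside 21.6% higher and 33.2% lower over all genes and 33.2% higher and 8.06% lower among all genes of 1 to 5 FPKM. Of 19 insulin-like peptide genes 6 were called higher and 0 lower, with ins-19 at 41.1, 51.8 and 50.1 FPKM in Nar+Glu against 19.4, 24.4 and 16.8 FPKM in Control (log2 change 1.21, adjusted p = 4.92e-06), ins-2 (log2 change 1.22), ins-1 (1.13) and ins-24 (0.97). Of 20 genes of TGF-beta signalling 8 were called higher and 0 lower, led by the ligand unc-129 (9.63 to 11.2 FPKM in Nar+Glu and 3.43 to 5.28 FPKM in Control, log2 change 1.02). The count was 3 with quantile normalization and 5 without Control replicate 3. Of 27 Wnt signalling genes 9 were called higher and 8 lower, against 6 and 3 with quantile normalization. The ligand egl-20 and the receptors cfz-2, lin-17 and mig-1 were among those higher. The ligand mom-2 (log2 change -0.25) and the receptor mom-5 (log2 change -0.34) were called lower. The Wnt list median of 0.04 changed sign with the filter at 5 FPKM, with the library covariate and without Control replicate 3, so no direction is given for the list. Of 137 nuclear hormone receptors 46 were called higher and 3 lower, but 20 higher and 11 lower with quantile normalization. Among them nhr-62 had 7.13, 9.06 and 7.63 FPKM in Nar+Glu against 4.67, 3.86 and 2.82 FPKM in Control (log2 change 0.92). The shares called higher in the insulin-like and nuclear receptor lists lie near that of all genes of 1 to 5 FPKM, so these counts are no result about the families. Of 153 F-box, MATH and BATH adaptor genes, which bring targets to ubiquitin ligases, 22 were called higher and 26 lower, but 28 and 18 with median-ratio scaling, 9 and 40 with quantile normalization and 3 and 19 with the filter at 5 FPKM, so no direction is given. The largest were fbxa-24 (log2 change 1.40) and math-41 (log2 change 1.28).

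**Figure D4:**
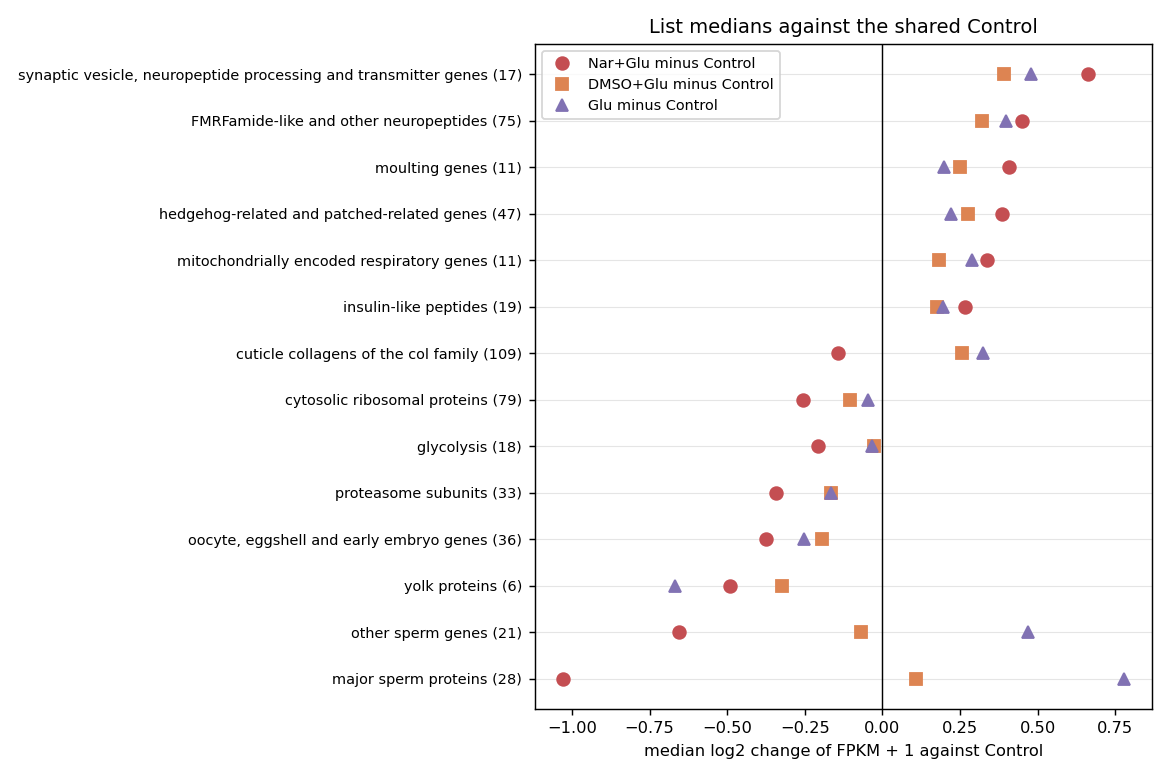
Points are the median log2 change of FPKM + 1 over the tested members of 14 lists (number in brackets) for Nar+Glu, DMSO+Glu and Glu, each minus the same Control libraries. For neuropeptides all 3 groups lie to the right of 0, at 0.45, 0.32 and 0.40, while for major sperm proteins Nar+Glu lies at -1.03, DMSO+Glu at 0.11 and Glu at 0.78.

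The chromosomes differed in the direction of their calls. Of 1728 genes on chromosome X, 32.5% were called higher and 12.2% lower (median log2 change 0.12), and of 10189 genes on the autosomes 19.8% were called higher and 36.9% lower (median -0.14). The X median lay above the autosomal median as deposited and in all 17 alternatives, with medians of 0.04 on X and -0.06 on the autosomes under quantile normalization. The difference depended on the level, with medians of 0.26 on X and 0.23 on the autosomes among genes of 1 to 5 FPKM (763 of the X-linked genes). They were 0.04 and -0.11 at 5 to 20 FPKM, and -0.03 and -0.25 at 20 to 100 FPKM. X-linked genes held 8.99%, 9.20% and 9.19% of the summed FPKM in the Nar+Glu libraries, against 8.27%, 8.40% and 8.12% in the Control libraries, with means of 8.75% in DMSO+Glu and 8.50% in Glu. The Nar+Glu and Control shares did not overlap, and the exact two-sided permutation test gave p = 0.1, the smallest that 3 against 3 libraries allow. As background, X-linked genes are largely silent in the worm germline, and the germline and oocyte marker sums given above were lower in Nar+Glu. The part of germline content in the X-linked difference was not tested.

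**Figure D5:**
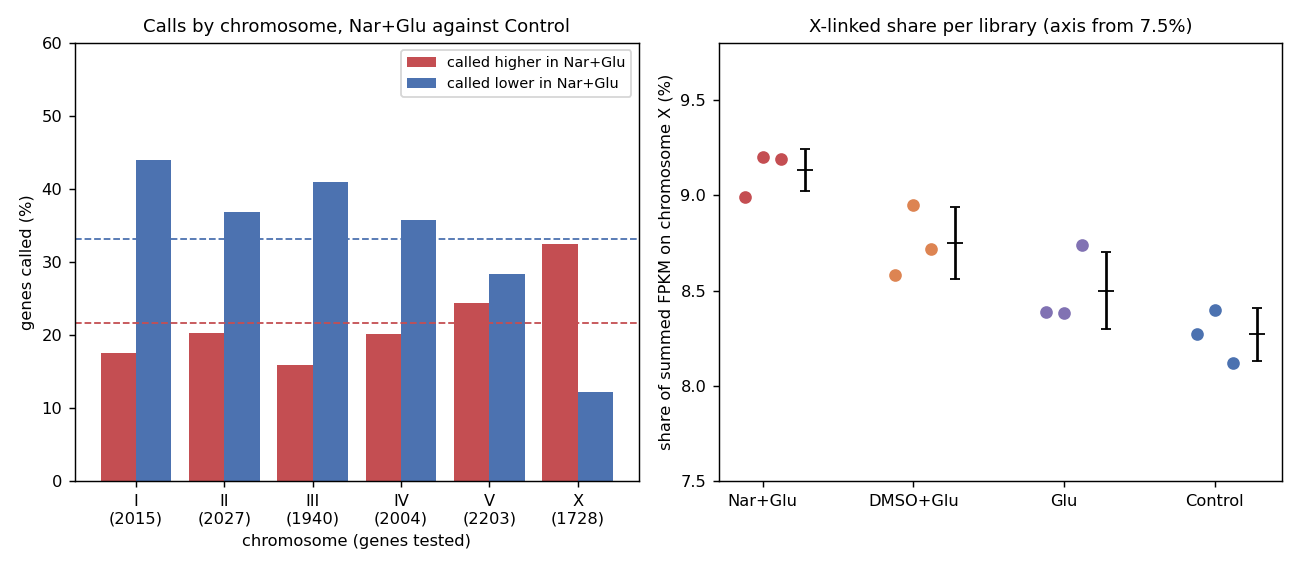
Left, bars give the share of the tested genes of each chromosome (number in brackets) called higher or lower in Nar+Glu than in Control, with dashed lines at 21.6% and 33.2% for all genes, and X is the 1 chromosome with more genes higher (32.5%) than lower (12.2%). Right, points are the X-linked share of summed FPKM in single libraries (the axis does not start at 0) with mean and SD (n = 3 each), and the Nar+Glu libraries at 8.99% to 9.20% stand above the Control libraries at 8.12% to 8.40%.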

How the data were processed

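Poly(A) RNA of whole worms was made into libraries with a stranded kit and sequenced on a NovaSeq instrument. The deposited values are FPKM per gene, which the authors obtained with HISAT2 2.1.0 and StringTie 1.3.3 on WBcel235 and compared with Ballgown, and the submitters' processing notes also name STAR 2.5.2b and edgeR without a role. FPKM carries no fragment count, so depth is unknown and a count test could not be used. Here the 12 libraries were grouped by their labels (3 in each of 4 groups), genes were kept where their mean over the 12 libraries exceeded 1 FPKM (3214 of 15365 were not tested), and log2(FPKM + 1) was modelled on the 4 groups in limma 3.58.1 (R 4.3.3), with moderated variances and a variance trend. All adjusted p-values are Benjamini-Hochberg values from this fit, and a gene was called below 0.05. On simulated data for Nar+Glu against Control over 12151 genes, 189 of 200 genes changed 2-fold were recovered, with 14 false calls. The changed genes were drawn from those of at least 5 FPKM, all other genes were left unchanged, and noise was independent between genes. These rates therefore do not carry over to the reported calls, most of which were smaller changes. Gene names, positions and types came from the Ensembl annotation of WBcel235, which matched 14138 genes by name and 875 by synonym or locus tag and left 352 unmatched.

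The text names the 8 largest rises and 8 largest falls among called genes with at least 5 FPKM on average and no overlap of the groups, up to 4 called members of each gene list, the genes the study names and the vitellogenins. Other genes, given as markers or to complete a small count, were chosen after their values were seen. The comparison and the gene lists were chosen with earlier results of these data known. The 17 alternatives were other pseudocounts (0.1 and 0.5 FPKM), no filter and a filter at 5 FPKM, median-ratio scaling, quantile normalization, no variance trend, array weights, a library covariate without moderation, a fit of the 6 compared libraries alone, a replicate block, and leaving out each of the 6 libraries.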

Additional observations from a re-analysis of the deposited data

How the results depend on the processing

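The count of called genes was 6657 as reported and 5393 to 6270 when 1 library was left out. It was 4433 with quantile normalization (2391 lower) and 628 with a library covariate without moderation (230 higher, 398 lower), which has few residual degrees of freedom and gave 4830 genes past the thresholds of the study. A filter at 5 FPKM gave 1305 higher, since it tested fewer genes. Genes called both as reported and under an alternative had the same direction in all 17 alternatives. The split of calls was 39.4% higher as reported, 46.1% with quantile normalization (2042 higher) and 46.5% without Control replicate 1 (2616 higher, 3008 lower). With the replicate block 6678 genes were called (2609 higher, 4069 lower). Same-numbered Nar+Glu and Control libraries had residual correlations of -0.05, -0.10 and -0.03, and libraries of other numbers had -0.03 to 0.07. The numbers were not used as pairs, but with 3 libraries a group these values cannot settle whether they pair the samples.

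Of the 126 called genes named, which leave out mom-2 and mom-5, 42 kept the call in every alternative and 111 in all but the library covariate. The exceptions beside atgl-1 and vit-5 were acdh-1, acs-4, act-1, act-3, atg-3, atg-5, atg-7, bli-1, bli-2, epg-6, gba-3, mig-1 and sams-1, which also lost it elsewhere, atg-5, bli-1, epg-6 and gba-3 in 8 or more alternatives. Turned directions, none of them past the threshold in that alternative, were asm-1 (-0.0366), atg-5 (0.00426), skn-1 (0.0631) and nhr-49 (0.14) with quantile normalization, asm-2 (0.0351), nhr-49 (0.0308), vit-2 (0.0786) and vit-6 (0.00474) with median-ratio scaling, fat-5 (-0.0139) with the library covariate, and, with 1 library left out, skn-1 (-0.221 to 0.0114) and nhr-49 (-0.143 to 0.0548) without Control replicate 1, and vit-2 (-0.0502 to 0.0147) without Nar+Glu replicate 3 or Control replicate 3 (0.00403). The causes were not tested. Among genes not called as reported, daf-16 and aak-2 passed with median-ratio scaling, daf-16, fat-5 and gba-1 with quantile normalization and bec-1 without Control replicate 2. Depth is unknown, which limits how firmly low levels can be read.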

Other observations

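The genes of this paragraph fall outside the naming rule and were chosen after their values were seen. Beside gba-2, asm-3 and gba-4 were low. The sphingomyelinase gene asm-3 had 1.53, 1.70 and 1.56 FPKM in Nar+Glu, against 7.51, 7.45 and 8.33 FPKM in Control (log2 change -1.76, adjusted p = 8.04e-07, limma), and gba-4 had 2.68, 2.41 and 2.39 FPKM, against 7.16, 8.91 and 8.22 FPKM (log2 change -1.38). Both were also low in DMSO+Glu (means of 1.83 and 3.69 FPKM) and Glu (1.80 and 3.62 FPKM). Their relatives asm-1 (log2 change 0.19), asm-2 (-0.04) and gba-1 (-0.13) were not called, and gba-3 was higher (0.32, adjusted p = 0.0407), so no direction is given for sphingolipid breakdown. Outside the collagens, the cuticlin gene cut-3 averaged 49.6 ± 2.05 FPKM in Nar+Glu and 11.8 ± 0.706 FPKM in Control (SD, n = 3 each, log2 change 1.98, adjusted p = 5.07e-10, limma), with means of 18.7 FPKM in DMSO+Glu and 19.6 FPKM in Glu, so that Nar+Glu stood apart from all other groups. The asparagine synthetase gene asns-2 had 64.3, 67.0 and 84.3 FPKM in Nar+Glu, against 23.2, 19.9 and 19.1 FPKM in Control (log2 change 1.74), with 48.8 FPKM in DMSO+Glu and 49.3 FPKM in Glu.

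Of 273 tested genes annotated as ncRNA, 66 (24.2%) were called higher and 6 (2.20%) lower, beside 21.6% and 33.2% over all genes and 33.2% and 8.06% among genes of 1 to 5 FPKM, with a median log2 change of 0.29 (0.13 with quantile normalization). Among them, tts-2 had 116, 111 and 113 FPKM in Nar+Glu, against 33.1, 33.1 and 28.1 FPKM in Control (log2 change 1.82, adjusted p = 1.55e-08), and 53.8 FPKM in DMSO+Glu and 58.7 FPKM in Glu.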
